A study of Mus musculus with 16 samples.

Results

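The 6 genes described here encode secreted metalloproteinases of the ADAMTS family (a disintegrin and metalloproteinase with thrombospondin motifs): the aggrecanases and proteoglycanases Adamts1, Adamts4, Adamts5 and Adamts9, the procollagen N-proteinase Adamts2, and Adamts12, which cleaves cartilage oligomeric matrix protein. They were taken by gene symbol from the 13733 genes of the deposited expression table, and all 6 were present. Bulk RNA-seq had been made of knee joints from 16 mouse samples of 2 genotypes, WT and Trem2-/-, each uninjured (D0) and injured (D7), with 4 samples a group. WT stands for wildtype C57BL/6 mice and Trem2-/- for Trem2 knockout mice of that background, in which the loss is carried by every cell. D7 joints had been given an anterior cruciate ligament injury with a single tibial compressive overload and taken 7 days later by the study's methods, and D0 joints were uninjured. The age stands as 10 weeks at injury in the treatment description and as 16 weeks in the sample labels, and all 4 groups share this label. The source label reads as cells from the joint and the study's methods describe their release by collagenase, whereas the extraction label describes homogenized whole joints of control and T1DM mice, and which of these holds was not settled here. Nothing in the labels ties a library to a separate animal, so the p-values below measure the spread between these samples, which may be technical in part. The comparisons ask how these proteinases respond to joint injury and whether loss of Trem2 changes that response.

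Aggrecan, the large proteoglycan that lets cartilage carry load, is cleaved in its core protein by ADAMTS aggrecanases, of which ADAMTS5 and ADAMTS4 are the most active and ADAMTS1 and ADAMTS9 also cut versican. ADAMTS2 removes the amino-terminal propeptide of fibrillar procollagens so that collagen molecules can assemble into fibrils. The enzymes are made as inactive precursors, are activated by furin-like convertases and are inhibited by TIMP3, and their loss or excess is a long-studied theme in arthritis, skin fragility and fibrosis.

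The zinc-binding stretch of the catalytic domain is what these 6 products share, and its coding sequence is shown to let the genes be compared in the part that makes them proteinases. Each stretch is 36 bases long, runs 5′ to 3′ on the coding strand of the longest coding transcript in GENCODE M21 (build GRCm38), and has the 3 codons for the zinc-binding histidines in capitals.
Adamts1: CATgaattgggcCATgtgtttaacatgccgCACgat
Adamts4: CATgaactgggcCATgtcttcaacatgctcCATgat
Adamts5: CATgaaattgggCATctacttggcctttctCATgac
Adamts9: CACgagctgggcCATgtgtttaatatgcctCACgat
Adamts2: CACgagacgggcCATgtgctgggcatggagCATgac
Adamts12: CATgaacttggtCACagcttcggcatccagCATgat

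Of the 36 positions, 14 were alike in all 6 genes. Adamts1 and Adamts9 were the closest pair, with 31 of 36 bases alike, and Adamts1 and Adamts4 had 30 alike. Adamts5 was less like the other aggrecanases, with 22 bases shared with Adamts1, 21 with Adamts4 and 20 with Adamts9. An exon junction crossed the stretch in every gene. In Adamts1, Adamts4 and Adamts5 it came after 10 bases, and in Adamts9, Adamts2 and Adamts12 it came after 17 bases. The stretch of Adamts1 was split between exons 3 and 4 of 9 (chr16:85799536-85799545 and chr16:85799188-85799213, minus strand), and that of Adamts5 between exons 2 and 3 of 8 (chr16:85887817-85887826 and chr16:85878012-85878037, minus strand). The stretch of Adamts4 was split between exons 3 and 4 of 9 (chr1:171253210-171253219 and chr1:171253893-171253918, plus strand). That of Adamts9 was split between exons 8 and 9 of 40 (chr6:92908477-92908493 and chr6:92905282-92905300, minus strand). Adamts2 had its stretch in exons 7 and 8 of 22 (chr11:50775403-50775419 and chr11:50776119-50776137, plus strand), and Adamts12 in exons 7 and 8 of 24 (chr15:11241529-11241545 and chr15:11255549-11255567, plus strand).

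Adamts1 and Adamts5 were neighbours on the minus strand of chromosome 16, with 53059 bases between the end of Adamts1 and the start of Adamts5 on the map. Adamts1 spans chr16:85793827-85803113 and Adamts5 chr16:85856173-85901828. Adamts4 spans chr1:171250421-171260637 and Adamts9 chr6:92772699-92943492, while Adamts2 spans chr11:50602084-50807573 and Adamts12 chr15:11064790-11349231, all in GRCm38. Exons of Adamts9 overlapped the opposite-strand genes A730049H05Rik and Gm15737. Whether reads had been counted by strand is not given in the sources used here, so the values of Adamts9 may hold reads of those partners.

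Libraries held between 11567073 and 32867818 reads in genes of the table, and the members were well covered, from 87 reads for Adamts12 in its lowest library to 23046 for Adamts1 in its highest. A count of 3 reads corresponds to between 0.101 and 0.250 CPM over the libraries, which covers counting error only. Trem2, the targeted gene, stood at 4.56 ± 1.40 CPM (SD, n = 4) in WT D0, 16.8 ± 5.08 in WT D7, 1.80 ± 0.713 in Trem2-/- D0 and 4.27 ± 0.644 in Trem2-/- D7, and was lower in each knockout library than in each WT library at D7 (log2 difference -1.72, SE 0.25, limma adjusted p = 0.0503), while the genotypes overlapped at D0. As for the joint label, the cartilage gene Acan stood at 39.4 CPM or more and the summed fibroblast markers at 1273 CPM or more in every library, and summed leukocyte markers lay between 1328 and 6277 CPM. Values are CPM (counts scaled to a fixed number of reads, with the library size adjusted by the trimmed mean of M-values, TMM), fold changes are differences of log2(CPM + 1), and a gene was called changed with a Benjamini-Hochberg adjusted p under 0.05 in limma over 13173 genes.

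Adamts1, the member with the highest level, did not pass the test after injury. In WT D0 joints its replicates 1 to 4 had 1289.7, 429.6, 697 and 655 CPM. The WT D7 replicates had 794, 683, 653 and 806 CPM. All 4 injured values fell within the range of the uninjured ones, and the uninjured range was the wider. In Trem2-/- joints, Adamts1 was at 649.8, 1022, 561 and 1087 CPM at D0 and at 774, 735, 854 and 759 CPM at D7, again inside the D0 range. The log2 fold change at D7 vs D0 was 0.04 (SE 0.27, adjusted p = 0.918, limma) in WT and -0.03 (SE 0.27, adjusted p = 0.928) in Trem2-/-. The 95% intervals, -0.54 to 0.63 and -0.62 to 0.55, bound the change that these libraries allow.

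Adamts4, the inducible aggrecanase of joint tissue, gave the same picture. It measured 723, 208, 489.6 and 452 CPM in WT D0 replicates 1 to 4 and 320.1, 336, 391 and 447 CPM in WT D7. In Trem2-/- it measured 448, 474, 299 and 667 CPM at D0 and 401, 467, 412 and 519 CPM at D7. In both genotypes the injured libraries lay within the span of the uninjured ones. The log2 fold change was -0.20 (SE 0.30, 95% interval -0.84 to 0.43, limma adjusted p = 0.629) in WT and -0.02 (SE 0.30, interval -0.66 to 0.62, adjusted p = 0.961) in Trem2-/-.

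Adamts5, the principal aggrecanase of mouse cartilage, had the largest log2 fold changes of the 4 aggrecanases described in both genotypes, but it did not pass the test. WT D0 replicates 1 to 4 had 69.1, 20.8, 24.7 and 63.5 CPM, so that they fell into a high and a low pair. WT D7 replicates had 58.6, 51.8, 40.7 and 79.2 CPM, which overlapped the high pair. Trem2-/- D0 had 31.6, 39.5, 23.7 and 39.9 CPM and Trem2-/- D7 had 52.3, 48.6, 63.8 and 52.5 CPM. In Trem2-/- every injured library was above every uninjured library (exact two-sided permutation test, p = 0.0286, the smallest value that 4 against 4 can give), as were 26.1% of all genes tested in that direction. The log2 fold change was 0.51 (SE 0.33, adjusted p = 0.242, limma) in WT and 0.69 (SE 0.33, adjusted p = 0.0866) in Trem2-/-. The Trem2-/- value passed when the fit held only the groups compared (adjusted p = 0.00612) and when WT D0 replicate 2 was left out of the shared spread (adjusted p = 0.0465).

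Adamts9, a proteoglycanase that also clears versican during development, stood at 241, 93.1, 155 and 185 CPM in WT D0 and 123, 123, 209.5 and 217 CPM in WT D7. Trem2-/- libraries had 154, 141, 129 and 228 CPM at D0 and 163, 224, 178 and 226 CPM at D7. The groups overlapped in both genotypes. Its log2 fold change was 0.02 (SE 0.27, adjusted p = 0.959, limma) in WT and 0.30 (SE 0.27, adjusted p = 0.365) in Trem2-/-.

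**Figure D1:**
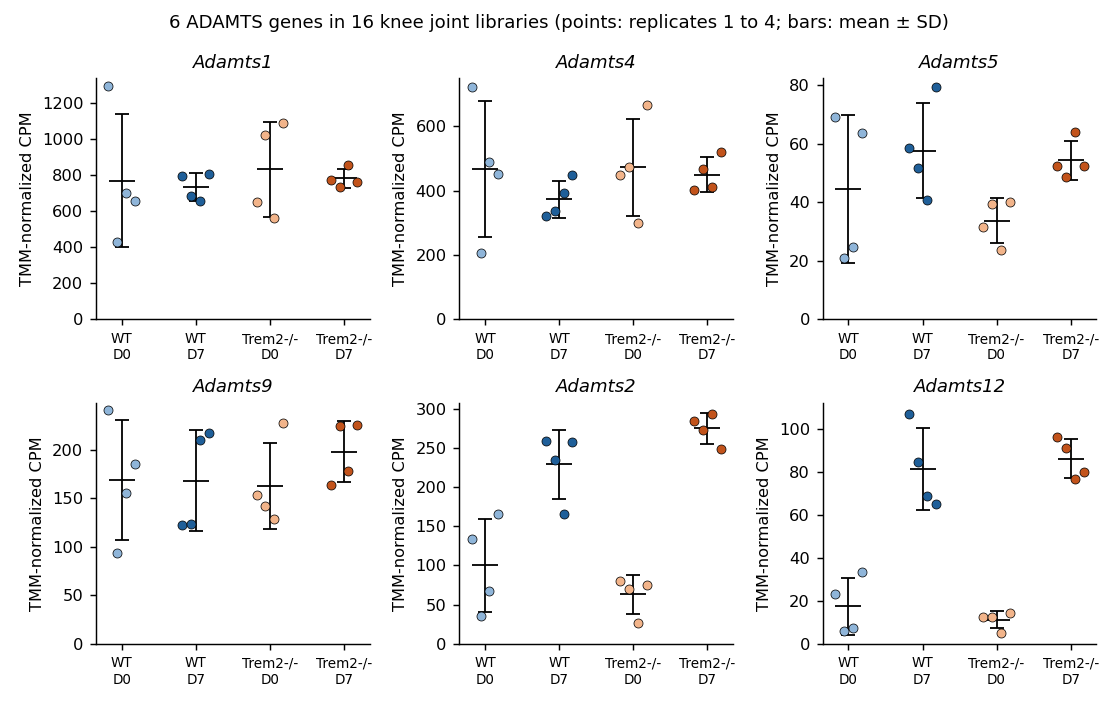
CPM of the 6 ADAMTS genes (y axes, each from 0) in the 4 groups (x axes), with a point for each of the 4 libraries and bars for the mean ± SD. Adamts2 and Adamts12 had every D7 library above every D0 library in both genotypes, while Adamts1, Adamts4 and Adamts9 overlapped between D0 and D7.

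Adamts2, the procollagen N-proteinase, rose after injury in both genotypes. WT D0 replicates 1 to 4 had 133, 35.2, 67.2 and 165 CPM, and WT D7 replicates had 258, 235, 166 and 257 CPM. WT D7 replicate 3 and WT D0 replicate 4 nearly met, but the groups did not overlap. Trem2-/- joints went from 80.5, 69.6, 26.8 and 75.0 CPM at D0 to 284, 273, 293 and 248 CPM at D7, with a wide gap between the groups. The log2 fold change was 1.39 (SE 0.40, 95% interval 0.54 to 2.25, adjusted p = 0.0199, limma) in WT, or 2.63-fold, and 2.22 (SE 0.40, interval 1.36 to 3.08, adjusted p = 0.000374) in Trem2-/-, or 4.66-fold. The call in WT rested on single libraries: it was lost without WT D0 replicate 2 (log2 fold change 0.98, adjusted p = 0.0601), without WT D0 replicate 3 (1.28, adjusted p = 0.0632) and without WT D7 replicate 1 (1.33, adjusted p = 0.0524). It was also lost when only the WT groups were fitted (adjusted p = 0.0584).

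Adamts12 had the largest fold change of the 6. It stood at 23.3, 5.74, 7.12 and 33.3 CPM in WT D0 replicates 1 to 4 and at 107, 84.3, 68.8 and 64.9 CPM in WT D7. The lowest injured WT library was well above the highest uninjured one. In Trem2-/- it was at 12.5, 12.5, 5.19 and 14.2 CPM at D0 and at 96.0, 91.2, 76.8 and 80.0 CPM at D7. The log2 fold change was 2.46 (SE 0.43, 95% interval 1.56 to 3.37, adjusted p = 0.00149, limma) in WT, or 5.52-fold, and 2.92 (SE 0.43, interval 2.01 to 3.83, adjusted p = 7.54e-05) in Trem2-/-, or 7.57-fold. The call held with each library left out, with a highest adjusted p of 0.00722 in WT.

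In all, 2 of the 6 members rose and 0 fell at D7 in WT, where 15.9% of all genes tested rose and 12.6% fell. The same 2 rose and 0 fell in Trem2-/-, where 26.0% rose and 27.2% fell. By the rule in the study's methods, an unadjusted p under 0.05 with a minimum fold change, the counts were also 2 of 6 in each genotype, against 37.4% of all genes in WT and 54.5% in Trem2-/-. Every injured library was above every uninjured one for 2 members in WT, against 12.9% of all genes, and for 3 members in Trem2-/-, against the 26.1% given above. The median log2 fold change of the members was 0.28 in WT and 0.50 in Trem2-/-, beside -0.04 over all genes in each genotype. With 6 members, these counts are a description of the genes and no test of the group.

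**Figure D2:**
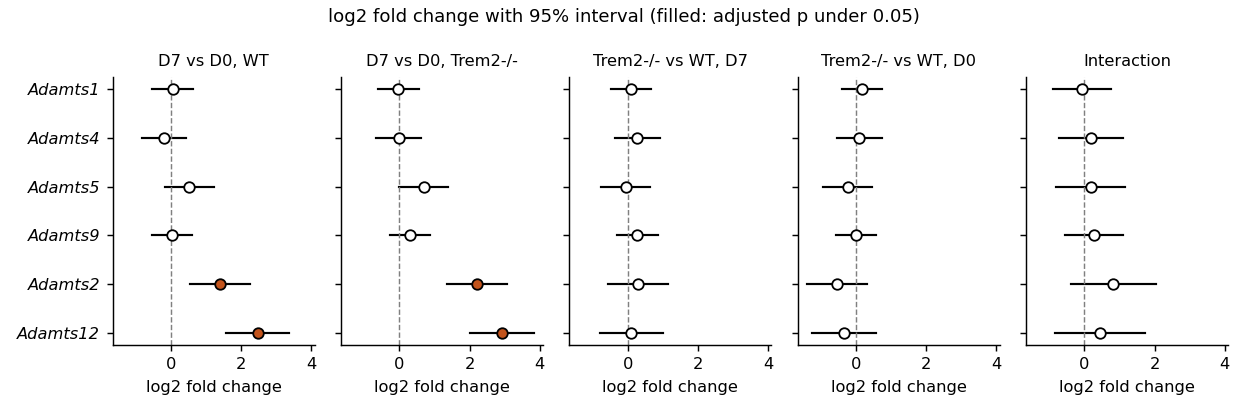
log2 fold change (x axes) of the 6 genes (y axis) in 5 comparisons, with 95% intervals from limma and filled points for an adjusted p under 0.05. Filled points appear for Adamts2 and Adamts12 at D7 vs D0 in both genotypes, and every interval of the genotype and interaction panels spans 0.

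Genotype made no difference that passed the test in any member. At D7, 0 of 6 members were called between Trem2-/- and WT by adjusted p, as were 0% of all genes tested, and 0 of 6 by the study's rule, which 5.72% of all genes passed. Before adjustment 0 of 6 had a p under 0.05 in limma, as did 958 of all 13173 genes. The log2 differences, Trem2-/- minus WT, were 0.09 for Adamts1, 0.27 for Adamts4, -0.05 for Adamts5, 0.27 for Adamts9, 0.28 for Adamts2 and 0.10 for Adamts12. Their 95% intervals reached at most 1.14 (Adamts2) upward and -0.80 (Adamts12) downward, so a difference of 2-fold at D7 lies outside the interval of Adamts1, Adamts4, Adamts5 and Adamts9 but inside that of Adamts2 and Adamts12. No member separated the genotypes at D7, where 8.33% of all genes did. Adamts2 came nearest, with 3 of 4 Trem2-/- libraries above the highest WT library (exact two-sided permutation p = 0.0857).

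At D0, 0 of 6 members were called by adjusted p (0% of all genes) and 0 by the study's rule (2.15% of all genes), and before adjustment 0 of 6 had a limma p under 0.05, as did 385 of all genes. The log2 differences were 0.17 for Adamts1, 0.09 for Adamts4, -0.23 for Adamts5, -0.00 for Adamts9, -0.54 for Adamts2 and -0.35 for Adamts12. The interval of Adamts2 was -1.40 to 0.31 and that of Adamts12 -1.26 to 0.55, so a level more than 2-fold lower in uninjured Trem2-/- joints lies inside the interval of both genes. No member separated the genotypes, as 0.979% of all genes did. The edgeR and DESeq2 tests on reads recovered from the table, and voom with limma, also called 0 of 6 members in both genotype comparisons and in the interaction given next.

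The difference of the injury response between genotypes was tested as an interaction. It was 0.83 (SE 0.57, limma adjusted p = 0.728) for Adamts2 and 0.46 (SE 0.60, adjusted p = 0.868) for Adamts12, and between -0.08 and 0.28 for the other members. None of the 6 was called by adjusted p, as was 0% of all genes, and 0 passed the study's rule, which 7.79% of all genes passed. Before adjustment 0 of 6 had a limma p under 0.05, as did 1075 of all genes. The fold changes of Adamts2 in the 2 genotypes, 2.63 and 4.66, are thus not shown to differ.

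Levels of different genes can be compared only per length, and for this the CPM of each gene was divided by the kilobases of its merged exons (CPM per kb). In WT D0 the order by mean level was Adamts1 (145 ± 69.3 CPM per kb, SD, n = 4), Adamts4 (97.3 ± 43.9), Adamts9 (11.2 ± 4.09), Adamts2 (10.7 ± 6.37), Adamts5 (4.13 ± 2.34) and Adamts12 (1.59 ± 1.22). The only neighbours in this order whose ranges did not overlap were Adamts4 and Adamts9, 8.69-fold apart. Within each WT D0 library this order of neighbours was kept, except that Adamts9 was above Adamts2 in 3 of 4.

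At WT D7 the order by level per length was Adamts1 (138 ± 14.5 CPM per kb), Adamts4 (77.7, from 66.5 to 93.0), Adamts2 (24.5 ± 4.68), Adamts9 (11.2 ± 3.47), Adamts12 (7.43 ± 1.74) and Adamts5 (5.34, from 3.78 to 7.34). Adamts2 had moved above Adamts9 and Adamts12 above Adamts5. The ranges of Adamts1, Adamts4, Adamts2 and Adamts9 did not overlap in this order, whereas those of Adamts9 and Adamts12 and of Adamts12 and Adamts5 did.

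Trem2-/- D0 had the same order as WT D0, with Adamts12 at 1.02 ± 0.368 CPM per kb and Adamts5 at 3.12 ± 0.714, which did not overlap. Trem2-/- D7 had the same order as WT D7, from Adamts1 (147 ± 9.71 CPM per kb) to Adamts5 (5.03 ± 0.612), and there all 5 pairs of neighbours had ranges that did not overlap.

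**Figure D3:**
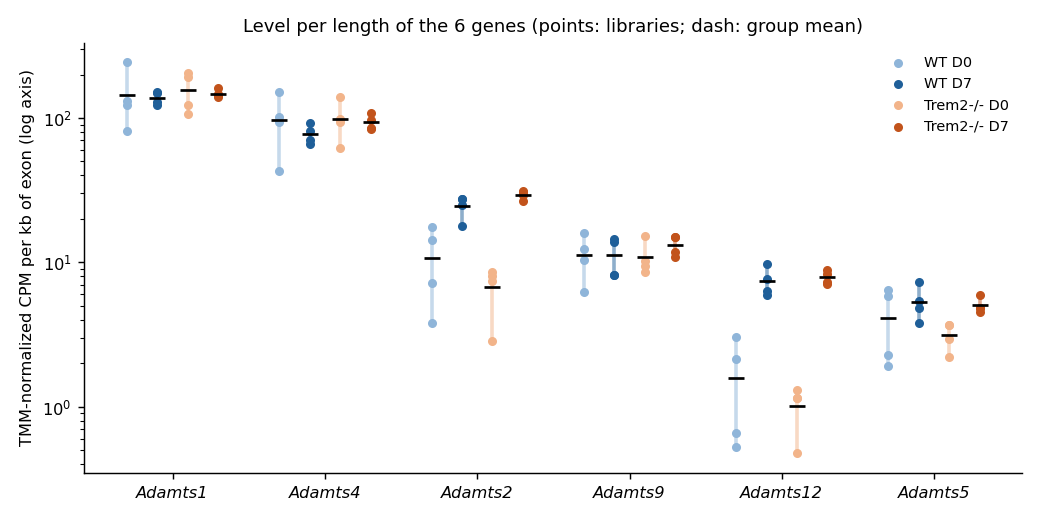
Level of the 6 genes as CPM per kb of exon (log y axis), with a point for each library, a bar over the range and a dash at the mean of each group. Adamts1 and Adamts4 stood above the other genes in every group, and Adamts2 and Adamts12 changed places with Adamts9 and Adamts5 between D0 and D7.

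Among 18 ADAMTS proteinases in the table, Adamts1 and Adamts4 together made up 83.6% ± 4.04 (SD, n = 4) of the summed level per length in WT D0 and 86.9% ± 0.983 in Trem2-/- D0. At D7 they made up 71.8% ± 2.56 in WT and 71.6% ± 1.87 in Trem2-/-. The lowest uninjured WT library, at 78.0%, was above the highest injured one, at 74.6%. Over the same groups the share of Adamts2 went from 3.67% ± 1.80 to 8.11% ± 1.14 in WT and from 2.30% ± 0.822 to 8.76% ± 0.647 in Trem2-/-. The share of Adamts12 went from 0.540% ± 0.382 to 2.48% ± 0.590 in WT and from 0.344% ± 0.0866 to 2.35% ± 0.289 in Trem2-/-.

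Members were also set against each other within a library, as differences of log2(CPM + 1). Of the 15 pairs of members, 8 had D7 ratios wholly apart from D0 ratios in WT and 11 in Trem2-/-. These counts are a description, and no other gene pairs were counted beside them. With exact permutation tests adjusted over the 15 pairs, 11 passed in Trem2-/- and 0 in WT. The smallest p that 4 against 4 can give in this test, 0.0286, became 0.0390 in Trem2-/- and 0.0536 in WT. With 8 WT pairs at that p, the test could call no pair in WT, whatever the size of its change. In Trem2-/- the 11 that passed were the 11 that lay wholly apart, all at that p, so the test adds nothing to that count. The pairs reuse the same 6 genes, many of them Adamts2 or Adamts12, so they are not separate results. The ratio of Adamts12 to each of the other 5 members was higher in every D7 library than in every D0 library of the same genotype. Against Adamts4 the mean log2 ratio of Adamts12 went from -4.87 to -2.20 in WT and from -5.31 to -2.37 in Trem2-/-. Against Adamts2, which itself rose, it went from -2.56 to -1.49 in WT and from -2.37 to -1.67 in Trem2-/-. The log2 ratio of Adamts1 over Adamts4 was 0.73 at D0 and 0.98 at D7 in WT, where the groups overlapped, and that of Adamts4 over Adamts1 was -0.81 and -0.80 in Trem2-/-.

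Within each genotype the D0 libraries varied more than the D7 libraries in all 6 genes. The same held for the median SD of log2(CPM + 1) over all genes tested. It was 0.27 at D0 and 0.21 at D7 in WT, and 0.24 and 0.13 in Trem2-/-. The SD of log2(CPM + 1) in WT D0 ran from 0.57 (Adamts9) to 1.16 (Adamts12), against a median of 0.27 over all genes tested. In Trem2-/- D7 it ran from 0.09 (Adamts1) to 0.23 (Adamts9), against a median of 0.13. WT D0 replicate 2 was the lowest of its group for all 6 members, at least 0.72 below the group mean on the log2 scale, and Trem2-/- D0 replicate 3 was the lowest of its group for all 6, 0.30 to 1.09 below it. WT D0 replicate 1 was above its group mean for all 6, as was Trem2-/- D0 replicate 4.

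The fibroblast marker sum of WT D0 replicate 2 was 1273 CPM, beside 5109, 2517 and 5411 CPM in WT D0 replicates 1, 3 and 4. Its leukocyte marker sum, 5344 CPM, was near that of replicate 3 (5673 CPM) and above those of replicates 1 and 4 (2899 and 3548 CPM). In Trem2-/- D0 the fibroblast sums lay between 2095 and 2638 CPM, with replicate 3 the lowest. The part of cell makeup in the spread of the members was not tested.

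**Figure D4:**
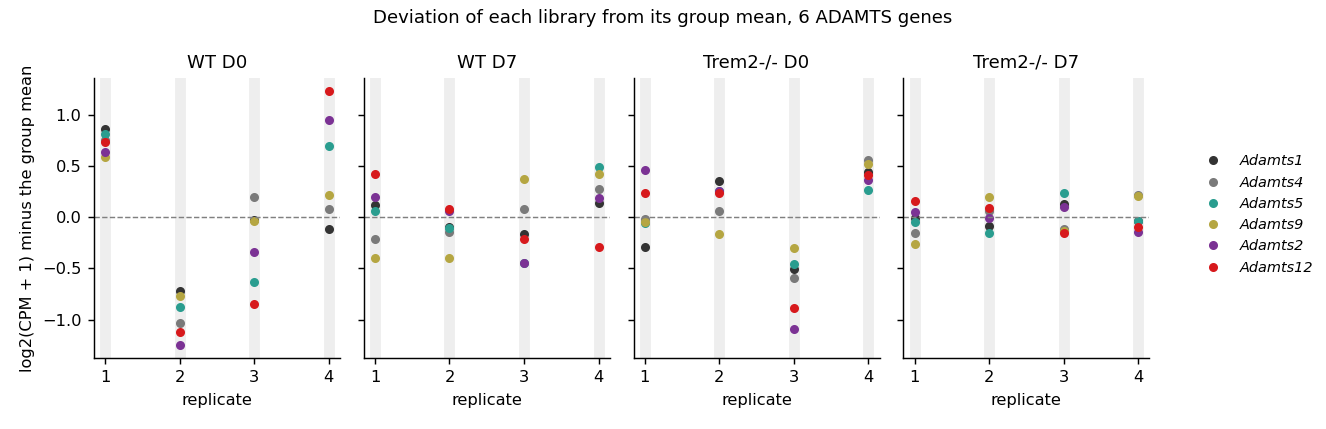
Difference of log2(CPM + 1) from the group mean (y axis) for each library (x axes, replicates 1 to 4 of each group), with a point per gene. All 6 genes were low together in WT D0 replicate 2 and in Trem2-/- D0 replicate 3, and the points drew closer to 0 at D7.

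With group means taken off, the members varied together over the 16 libraries, which share depth and cell makeup in each library. Adamts2 and Adamts12 were the most alike pair (Pearson's r = 0.92, Spearman's rho = 0.87), followed by Adamts4 and Adamts9 (r = 0.89, rho = 0.94) and Adamts2 and Adamts5 (r = 0.87, rho = 0.85). Adamts9 and Adamts12 were the least alike (r = 0.46, rho = 0.29). The neighbours Adamts1 and Adamts5 stood between, with r = 0.76 and rho = 0.73. These values describe the 16 libraries and carry no test.

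By the same measure, 10551 other genes whose mean level reached 5 CPM were compared with each member. The genes named are those with the highest r of all compared, picked for that, and carry no test. The gene most like Adamts2 was Ltbp1 (r = 0.99, and 0.97 without the 2 libraries farthest from the median), a latent TGF-beta binding protein, followed by Numbl and Tbx15 (both r = 0.98). Adamts12 was most like Adgra2, Galnt16 and Prrx1 (r = 0.96 each), the last a transcription factor of limb mesenchyme. Adamts5 was most like Lrp6, a Wnt co-receptor (r = 0.99), Pam and Tm9sf2. Adamts1 was most like Spry4, a feedback inhibitor of growth factor signalling (r = 0.98), Tcaf2 and Ccser2. Adamts4 was most like Tle1, Cltb and Yap1 (r = 0.98, 0.96 and 0.96), and Adamts9 was most like Magi3, Gatad2a and Zfp146 (r = 0.96, 0.95 and 0.95).

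Markers of cell types moved with injury beside the members that rose. Of all genes tested, 15.9% rose and 12.6% fell in WT, and 26.0% rose and 27.2% fell in Trem2-/-. Fibroblast markers rose in 4 of 6 in WT and 5 of 6 in Trem2-/- (Thy1 by 1.82 and 2.33 and Pdgfra by 1.14 and 1.80 on the log2 scale, limma adjusted p between 5.6e-05 and 0.034). Their summed level ranged from 1273 to 5411 CPM in WT D0, from 4074 to 6469 in WT D7, from 2095 to 2638 in Trem2-/- D0 and from 5000.3 to 7326 in Trem2-/- D7. Chondrocyte markers rose in 7 of 8 tested in each genotype, with sums from 595 to 12207 CPM in WT D0 and from 27500.0 to 70168 CPM in WT D7, and from 659 to 3348 CPM in Trem2-/- D0 and from 25791 to 39271 CPM in Trem2-/- D7. Leukocyte markers fell in 4 of 6 in WT and 6 of 6 in Trem2-/-, as did all 3 erythroid markers tested, and all 6 neutrophil markers and all 4 B cell markers fell in both genotypes. Macrophage markers rose in 6 of 7 in WT, and in Trem2-/- 5 rose and 1 fell. All 4 tendon and ligament markers rose in Trem2-/- and 1 of 4 in WT. Of the mural markers 2 of 6 rose in WT, and 3 rose and 1 fell in Trem2-/-. Of 5 osteoblast markers 2 rose in WT and 3 in Trem2-/-, and of 3 synovial lining markers 0 and 1 rose. Skeletal muscle markers fell in 1 of 6 in WT and 5 of 6 in Trem2-/-. Between the genotypes at D7, 0 of 6 leukocyte markers were called by adjusted p, although by the study's rule all 6 were lower in Trem2-/-, as were 4 of 4 B cell, 3 of 7 macrophage and 1 of 3 erythroid markers. By the same rule 3 of 4 tendon and ligament markers were higher in Trem2-/- at D7, and 0 markers of the other lists passed. That rule was passed at D7 by 5.72% of all genes. At D0 it was passed by 4 of 8 chondrocyte, 2 of 4 tendon and ligament, 2 of 5 osteoblast and 1 of 6 fibroblast markers, all lower in Trem2-/-. Markers of the other lists did not pass it at D0, where 2.15% of all genes did, and 0 markers were called by adjusted p. Of 7 endothelial markers 0 were called by limma in either genotype. Before adjustment 0 had a limma p under 0.05, beside 5630 of all 13173 genes in WT and 7753 in Trem2-/-. In bulk samples, fewer cells of a type and less RNA per cell cannot be told apart, and the part of these cell type markers in the rise of Adamts2 and Adamts12 was not tested.

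The other ADAMTS proteinases put the 6 genes in their family. Of 13 others, 12 were in the table and 11 passed the filter on low values, a filter that a gene high in a single group can pass. In each genotype 7 of the 11 rose and 0 fell: Adamts3, Adamts6, Adamts7, Adamts14, Adamts16, Adamts17 and Adamts18. Over all genes tested, 15.9% rose and 12.6% fell in WT, and 26.0% rose and 27.2% fell in Trem2-/-. The median log2 fold change of the 11 was 1.22 in WT and 1.504 in Trem2-/-. Adamts3 and Adamts14, which with Adamts2 make up the procollagen N-proteinases, rose by 1.85 (SE 0.35, limma adjusted p = 0.00243) and 1.69 (SE 0.32, adjusted p = 0.00248) in WT and by 2.78 and 2.38 in Trem2-/-, on the log2 scale. Adamts7, the relative of Adamts12 that also cuts cartilage oligomeric matrix protein, rose by 1.43 (SE 0.25, adjusted p = 0.00158) in WT and by 2.33 in Trem2-/-. Its exons overlap those of the opposite-strand gene Tbc1d2b. Adamts16 had the largest fold change of these genes, between a D0 range of 0.372 to 6.32 CPM and a D7 range of 13.2 to 44.2 CPM in WT, and between 0.119 to 2.15 and 20.8 to 30.0 CPM in Trem2-/-, with the lowest D0 values near the level of 3 reads.

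Of 7 tested genes placed here as aggrecanases and proteoglycanases (Adamts1, Adamts4, Adamts5, Adamts8, Adamts9, Adamts15 and Adamts20), 0 were called in either genotype by limma. Before adjustment 1 of the 7 had a limma p under 0.05 in WT and 0 in Trem2-/-, beside 5630 and 7753 of all 13173 genes. Of the 10 other proteinases tested, which were not placed by a shared substrate, 9 rose in each genotype, Adamts10 being the exception. Over all genes tested, 15.9% rose and 12.6% fell in WT, and 26.0% rose and 27.2% fell in Trem2-/-. This grouping was made with the values known, so both counts depend on the placement, and it carries no test. Adamts15 came nearest to a call among the 7, at 0.91 in WT (SE 0.34, adjusted p = 0.0547, limma), and Adamts8 was at -0.62 (SE 0.31, adjusted p = 0.139).

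**Figure D5:**
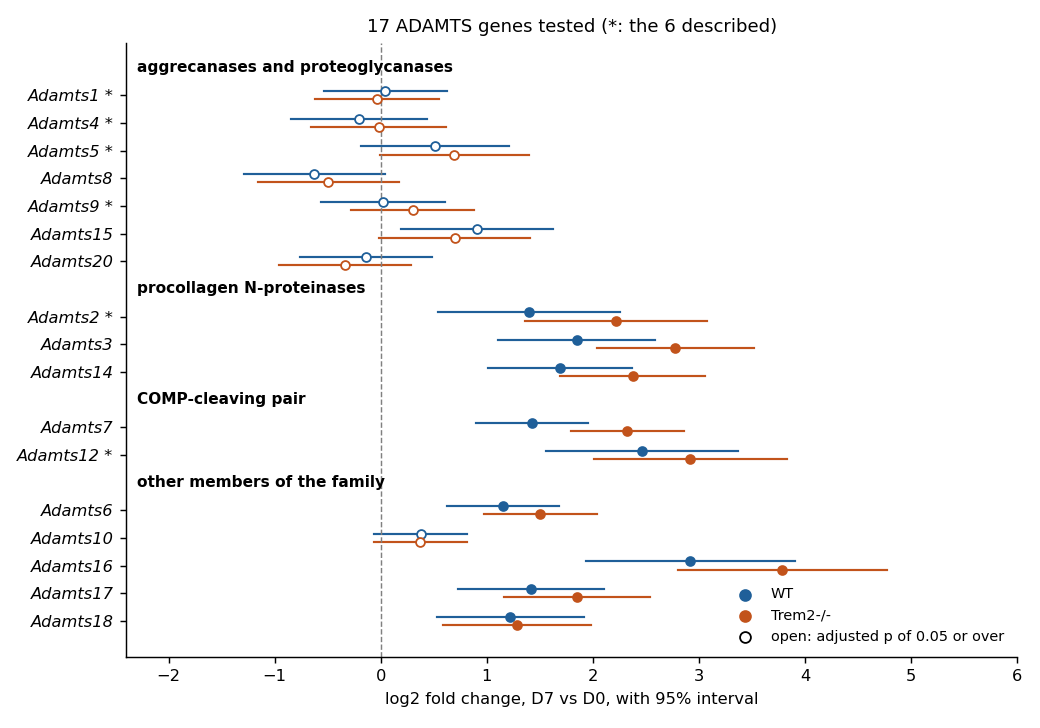
log2 fold change at D7 vs D0 with 95% intervals (x axis) of the 17 ADAMTS proteinase genes tested (y axis), in WT (blue) and Trem2-/- (orange). Genes are grouped by a substrate assigned from general knowledge, except Adamts6, Adamts10, Adamts16, Adamts17 and Adamts18, which stand as other members of the family. The grouping was made with the values known. Open points, with an adjusted p of 0.05 or over, fill the aggrecanase and proteoglycanase group, whereas each gene of the procollagen N-proteinase group and of the pair that cuts cartilage oligomeric matrix protein has filled points.

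Of 7 ADAMTS-like proteins, which share the ancillary domains but lack the proteinase, 3 rose in WT (Adamtsl4 by 1.34, Adamtsl3 by 0.94 and Adamtsl5 by 0.89 on the log2 scale, limma adjusted p = 0.00606, 0.0175 and 0.0364) and none fell. In Trem2-/- 4 rose and 1 fell, the last being Papln (-1.12, adjusted p = 0.0279). The median log2 fold change of the list was 0.80 in WT and 0.79 in Trem2-/-. Beside these counts, 15.9% of all genes rose and 12.6% fell in WT, and 26.0% rose and 27.2% fell in Trem2-/-.

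The transcripts of the substrates rose. Of 7 tested aggrecanase substrates and partners, 6 rose in each genotype and 0 fell, with a median log2 fold change of 1.81 in WT and 2.33 in Trem2-/-. Among all genes tested, 15.9% rose in WT and 26.0% in Trem2-/-. Acan, which encodes aggrecan, went from 497 ± 519 to 4113 ± 1246 CPM in WT (log2 fold change 3.74, SE 0.71, limma adjusted p = 0.00248) and from 131 ± 94.6 to 3178 ± 598 CPM in Trem2-/- (4.88, SE 0.71, adjusted p = 7.19e-05). Hapln1, the link protein that holds aggrecan to hyaluronan, rose by 2.82 in WT and 4.02 in Trem2-/- and Vcan, encoding versican, by 1.81 and 2.33 on the log2 scale. Comp, the substrate of Adamts7 and Adamts12, rose by 1.84 (SE 0.49, adjusted p = 0.0140) in WT and 1.88 (SE 0.49, adjusted p = 0.00515) in Trem2-/-. Acan is also among the chondrocyte markers above.

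All 6 fibrillar procollagen genes on the list, the substrates of Adamts2, rose in both genotypes, with a median log2 fold change of 2.85 in WT and 4.37 in Trem2-/-. The share of all genes that rose was 15.9% in WT and 26.0% in Trem2-/-. Col1a1 rose by 2.85 (SE 0.57, limma adjusted p = 0.00333), Col3a1 by 2.85, Col5a1 by 2.99 and Col2a1 by 4.45 in WT on the log2 scale. In Trem2-/- the same genes rose by 4.45, 4.40, 4.35 and 5.65. The rise of Adamts2, 1.39 and 2.22, was the smaller in each case, with no test of that difference. Of the 4 tested procollagen C-proteinases and their enhancers, 3 rose in WT and 4 in Trem2-/-, with medians of 1.42 and 1.70. Bmp1, the main C-proteinase, rose by 1.85 and 2.54 and its enhancer Pcolce by 1.92 and 2.54, while Pcolce2 rose by 0.99 and 0.86.

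Of 10 tested inhibitors, activators and clearance factors, 3 rose and 1 fell in WT and 4 rose and 2 fell in Trem2-/-, with medians of 0.55 and 0.62. The shares of all genes were 15.9% up and 12.6% down in WT, and 26.0% up and 27.2% down in Trem2-/-. Timp3, the main tissue inhibitor of the aggrecanases, was not called: it stood at 746 ± 273 CPM in WT D0 and 752 ± 273 in WT D7 (log2 fold change 0.03, SE 0.28, limma adjusted p = 0.956), and at 758 ± 171 and 661 ± 87.9 CPM in Trem2-/- (-0.18, SE 0.28, adjusted p = 0.606). Timp1, an inhibitor of matrix metalloproteinases, rose by 2.21 in WT (adjusted p = 0.00537) and 3.13 in Trem2-/- (adjusted p = 0.000117), and Timp4 fell by 2.08 and 2.54 on the log2 scale. Of the convertases that activate ADAMTS precursors, Pcsk5 rose by 0.81 (adjusted p = 0.0478) and 1.33 (adjusted p = 0.00146), and Furin rose by 0.37 (adjusted p = 0.0255) in WT and was at 0.23 (adjusted p = 0.0937) in Trem2-/-. Lrp1, the endocytic receptor for these proteinases, was on the list but was not found under that symbol in the expression table, so it has no value here. Between genotypes none of the genes on these lists was called by adjusted p at D7 or D0. By the study's rule 2 of 6 fibrillar procollagens were lower in Trem2-/- at D0. So were 1 of 7 aggrecanase substrates and partners and 1 of 11 other ADAMTS proteinases, where 2.15% of all genes passed.

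Promoters, 300 bases around the transcription start, were available in the RefSeq table (build GRCm38.p6) for Adamts1, Adamts2, Adamts9 and Adamts12, 4 of the 6 members. Those of Adamts2 and Adamts12, which rose together, are set beside that of Adamts1, the most abundant member that did not pass the test. Capitals mark matches on either strand to GGGCGG (the GC box), TATAAA (the TATA box), CCAAT and TGANTCA (the AP-1 motif).
Adamts2: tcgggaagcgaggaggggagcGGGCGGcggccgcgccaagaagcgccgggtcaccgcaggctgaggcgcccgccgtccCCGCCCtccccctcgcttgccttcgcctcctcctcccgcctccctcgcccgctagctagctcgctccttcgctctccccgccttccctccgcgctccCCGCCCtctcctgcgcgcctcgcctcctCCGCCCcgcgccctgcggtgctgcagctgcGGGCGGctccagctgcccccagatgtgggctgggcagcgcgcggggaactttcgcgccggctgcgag
Adamts12: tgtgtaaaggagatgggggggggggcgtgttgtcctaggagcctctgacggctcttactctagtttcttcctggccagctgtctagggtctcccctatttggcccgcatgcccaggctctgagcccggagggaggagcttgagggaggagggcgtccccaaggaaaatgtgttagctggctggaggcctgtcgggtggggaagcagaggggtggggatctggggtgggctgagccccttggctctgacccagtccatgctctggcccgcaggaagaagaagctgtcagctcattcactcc
Adamts1: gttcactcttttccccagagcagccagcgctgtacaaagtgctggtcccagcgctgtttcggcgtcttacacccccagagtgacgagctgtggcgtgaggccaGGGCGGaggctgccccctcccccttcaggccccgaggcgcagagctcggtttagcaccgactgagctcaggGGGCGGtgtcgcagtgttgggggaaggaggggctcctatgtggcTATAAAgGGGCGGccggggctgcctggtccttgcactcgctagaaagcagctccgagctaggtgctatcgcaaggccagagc

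The Adamts2 promoter (chr11:50601835-50602134, plus strand) was 77.3% G or C, with 41 CG dinucleotides and 5 matches to the GC box. That of Adamts12 (chr15:11064523-11064822, plus strand) was 62.0% G or C, with 7 CG dinucleotides and no match to any of the 4 motifs. Adamts1 (chr16:85803064-85803363, minus strand) had 3 GC boxes and 1 TATA box, just upstream of the last of them. Adamts9 (chr6:92943485-92943784, minus strand, not shown) held 1 GC box. None of the 4 held the AP-1 motif or CCAAT. Over all 32851 promoters of that length, 35.7% held a GC box, 13.6% a TATA box, 37.4% CCAAT and 7.81% the AP-1 motif, and the median G or C content was 52.7%. These matches describe letters in a window and say nothing of binding.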

How the data were processed

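RNA-seq of knee joints was analysed in 16 samples, 4 per group, grouped by the genotype and condition in the labels. By the study's methods, STAR (mm10, GRCm38) and featureCounts gave gene counts, which the authors scaled with edgeR's TMM, and the deposited signal values are CPM relative to the TMM-adjusted library size. Versions, annotation and the strand setting are not given in the sources used here. The labels and the methods differ on the kit and on whether joints were homogenized or cells released, and the extraction label names T1DM mice, which no sample label does. All values (100%, within 0.1 of a read) were whole multiples of 1 read, so reads were recovered for the count tests. Replicate pairs differed by more than sampling noise (lowest chi-square per degree of freedom 10.8). The 13173 genes that reached 1 CPM in 4 or more libraries were tested as log2(CPM + 1) by limma 3.58.1 under R 4.3.3 (moderated variances with an intensity trend), with the 4 groups as a factor and Benjamini-Hochberg adjustment over all of them. Single values were compared with exact permutation tests over 70 assignments (SciPy 1.17.1). Alternatives were edgeR 4.0.16, DESeq2 1.42.0 and voom on recovered reads, other pseudocounts, filters and scalings, a replicate block, only the groups compared, and each library left out. The limma script was tested on simulated data. All 6 members were named. Of each other list, the called genes with the largest change in WT, up to 4, were named, with Timp3, Acan, Comp and Lrp1. Named after their values were seen were Adamts6, Adamts8, Adamts10, Adamts15, Adamts17, Adamts18, Adamts20, Papln, Bcan, Hapln4, Thy1 and Pdgfra. The members and lists were chosen with earlier results of these data known. Gene positions and exon lengths came from GENCODE M21.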

Additional observations from a re-analysis of the deposited data

Results flagged for a closer look

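In 8 of 120 groups of 4 libraries, over 30 named genes, 1 library stood apart by Dixon's ratio (gap to the nearest library over the group's range), where chance gives about 6. None of these was a value of the 6 ADAMTS genes described. In Trem2-/- D7, replicate 3 was the highest for Acan (4069 CPM beside 2785 to 2929, ratio 0.887), Hapln1 (873 beside 486 to 533 CPM, ratio 0.879), Comp (5599.9 beside 3406 to 3657 CPM, ratio 0.886) and Pcolce2 (129 beside 85.9 to 91.5 CPM, ratio 0.869), and replicate 4 was the highest for Vcan (829.9 beside 540.3 to 578 CPM, ratio 0.871). Adamts16 was high in WT D7 replicate 2 (44.2 CPM beside 13.2 to 17.6, ratio 0.858). Adamts14 was high in WT D0 replicate 4 (14.7 CPM beside 6.17 to 6.45, ratio 0.966) and in Trem2-/- D0 replicate 2 (11.4 CPM beside 3.88 to 4.94, ratio 0.858).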

How the results depend on the processing

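The number of members called at D7 vs D0 was 2 in each genotype and 0 between genotypes and for the interaction, and these counts were the same under each other pseudocount, filter, scaling and tool tried, except that with only the groups compared it was 1 in WT (Adamts2 was lost) and 3 in Trem2-/- (Adamts5 was gained). With each library left out it ranged from 1 to 2 in WT and from 2 to 3 in Trem2-/-. With a replicate block the counts were 2, 2, 0, 0 and 0. Same-numbered libraries deviated together only in part (r across genes from -0.51 to 0.41, and from 0.046 to 0.41 between WT D0 and WT D7). These values cannot settle whether the numbers pair the samples. The block moved the share of all genes called from 28.5% to 27.0% in WT and from 53.2% to 51.4% in Trem2-/-. With only the groups compared, 13.2% of all genes were called in WT.

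Signs turned only for values that were not called, the largest of them in size being -0.35 for Adamts12 between genotypes at D0, which was 0.058 without WT D0 replicate 4. For Adamts1 in WT the value was -0.064 with quantile normalization, -0.066 with edgeR and -0.045 with DESeq2. For Adamts9 in WT it was -0.021 with quantile normalization, -0.0024 with voom and -0.0045 with edgeR, and for Adamts4 in Trem2-/- it was 0.00067 with median-of-ratios size factors. With each library left out, log2 fold changes at D7 vs D0 ranged from -0.20 to 0.33 for Adamts1, from -0.55 to 0.048 for Adamts4 and from -0.23 to 0.22 for Adamts9 in WT, and from -0.20 to 0.11 for Adamts1 and from -0.22 to 0.16 for Adamts4 in Trem2-/-. Between genotypes at D7 Adamts5 ranged from -0.20 to 0.11. At D0 the ranges were -0.071 to 0.46 for Adamts1, -0.26 to 0.34 for Adamts4, -0.52 to 0.040 for Adamts5, -0.26 to 0.19 for Adamts9 and -0.73 to 0.058 for Adamts12. For the interaction they were -0.36 to 0.16 for Adamts1, -0.069 to 0.53 for Adamts4 and -0.091 to 0.47 for Adamts5. The cause was not tested beyond which library or setting was changed. The lowest count of a member was 87 reads, and the effect of depth on the members was not tested. With 4 libraries a group the exact test cannot go below 0.0286.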
